A study of Saccharomyces cerevisiae with 6 samples.

Results

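The response of a yeast strain lacking SNQ2 to compound 089 was compared, gene by gene, with the response of its parental strain. Each of 6 two-colour arrays set RNA of Saccharomyces cerevisiae cells treated with 089 (Cy5) against RNA of untreated cells of the same strain (Cy3). The snq2 deletion strain is BY4742 with kanMX in place of SNQ2. The parental strain is BY4742 itself, a haploid laboratory strain of mating type alpha. Both carry his3, leu2, lys2 and ura3 mutations, and so does the erg6::kanMX4 strain, whose 2 arrays entered the fit through the spread of each gene. All cultures were set to the same cell density in rich medium (YPD) at pH 4.8 and shaken at 28 °C for 4 h, the treated ones with 0.2 mM 089. The labels describe 089 as an amide built on a bicyclic acetal scaffold with benzhydryl and phenyl groups. The 2 arrays of a strain are biological replicates per the series text, and each deletion is represented by 1 strain. Dyes were not swapped, so a dye effect of a gene cancels in the difference only where it is equal in both strains. Even an equal dye effect stays in each strain's own response against 0. It can therefore move a gene between the classes below, which rest on the signs and calls of the own responses.

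The values are log ratios, 1 per feature and array. They were taken as log2 of treated over untreated. That direction and base are likely from the sample titles and dye labels, but no source used here states them. With the opposite direction every higher and lower below would trade places, while the genes whose sign turned would be the same. The quantity followed here is the mean log2 ratio of the 2 snq2 deletion arrays minus that of the 2 parental arrays. It was taken for all 6362 genes among 7045 features, with 144 features named Blank and 539 named empty left out. No array set one strain against the other, so a difference compares 2 ratios and gives no level of a gene in either strain. A ratio also does not tell whether the treated or the untreated sample moved.

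Snq2 is an efflux pump of the ABC (ATP-binding cassette) family in the plasma membrane, related to Pdr5. Pdr1 and Pdr3 control both pumps, and Yrr1 controls SNQ2. Yeast cells under stress usually raise a common set of stress and reserve carbohydrate genes through the transcription factors Msn2 and Msn4, and lower the genes that make ribosomes. Genes of respiration and of growth on carbon sources other than glucose rise as glucose runs out, while genes of fermentation are high when glucose is plentiful.

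Replicate arrays correlated at r = 0.916 across genes in the snq2 deletion strain, 0.901 in the parental strain and 0.713 in the erg6 deletion strain, with genes not being independent replicates. The median log2 ratio over genes lay near 0 in both strains compared, at -0.03 over strain means in the snq2 deletion strain and -0.02 in the parental strain, and the median difference over all genes was -0.09. Spots named Blank or empty, whose content the labels do not give, also passed the threshold used for genes: 25.7% of the Blank spots and 8.53% of the empty spots did. The central 95% of the differences of these 683 control spots ran from -1.94 to 1.43, and 330 genes with a called difference lay outside that range, 217 above it and 113 below it. The lower limit rests on the last 15 features named empty, which follow each other in the table. Their mean log2 ratios ran from -0.38 to 1.54 in the snq2 deletion strain and from 1.23 to 4.82 in the parental strain, and 14 of them had differences below -2. Without them, a choice made after seeing the data, the range was -1.47 to 1.43, with 217 called genes above it and 301 below it. SNQ2 itself gives no check of the deletion, since a locus missing from both samples on an array leaves a ratio of background. Its log2 ratios were 0.22 and 0.03 on the snq2 deletion arrays, against -0.34 and -0.36 on the parental arrays.

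With 1 mean per strain fitted by limma, 2495 of 6362 genes (39.2%) responded differently in the snq2 deletion strain at a Benjamini-Hochberg adjusted p of 0.05. The response was higher in the snq2 deletion strain for 1042 genes (16.4%) and lower for 1453 genes (22.8%). The difference reached 2-fold for 444 of the higher and 649 of the lower genes. Own responses were called for 51.5% of genes in the snq2 deletion strain (1612 rose and 1664 fell) and for 54.0% in the parental strain (1736 rose and 1698 fell). Each of the 4 arrays compared moved these counts: the called differences were 1693 without snq2 deletion replicate 1, 1258 without its replicate 2, 1202 without parental replicate 1 and 1316 without its replicate 2. In all 4 of these fits 995 of the 2495 genes kept their call and direction. The calls kept in the gene lists below are to be read beside that share.

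The 2495 genes were separated by what each strain did on its own. In 407 genes (16.3% of those called and 6.4% of all genes) both strains responded with opposite signs, and these are called turned below. Of the turned genes, 237 rose in the snq2 deletion strain and fell in the parental strain, with medians of 0.76 and -0.69 for the log2 ratios and 1.55 for the difference. The other 170 fell in the snq2 deletion strain and rose in the parental strain, with medians of -0.67 and 0.56 for the log2 ratios and -1.34 for the difference. Both strains responded with the same sign in 657 genes: the change was larger in the snq2 deletion strain in 252 of them and smaller in 405. A further 663 genes had a called response in the snq2 deletion strain alone and 725 in the parental strain alone, and 43 had a called difference with neither response called. Being turned in all 4 fits that leave out 1 array held for 74 of the 237 and 21 of the 170 genes.

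**Figure D1:**
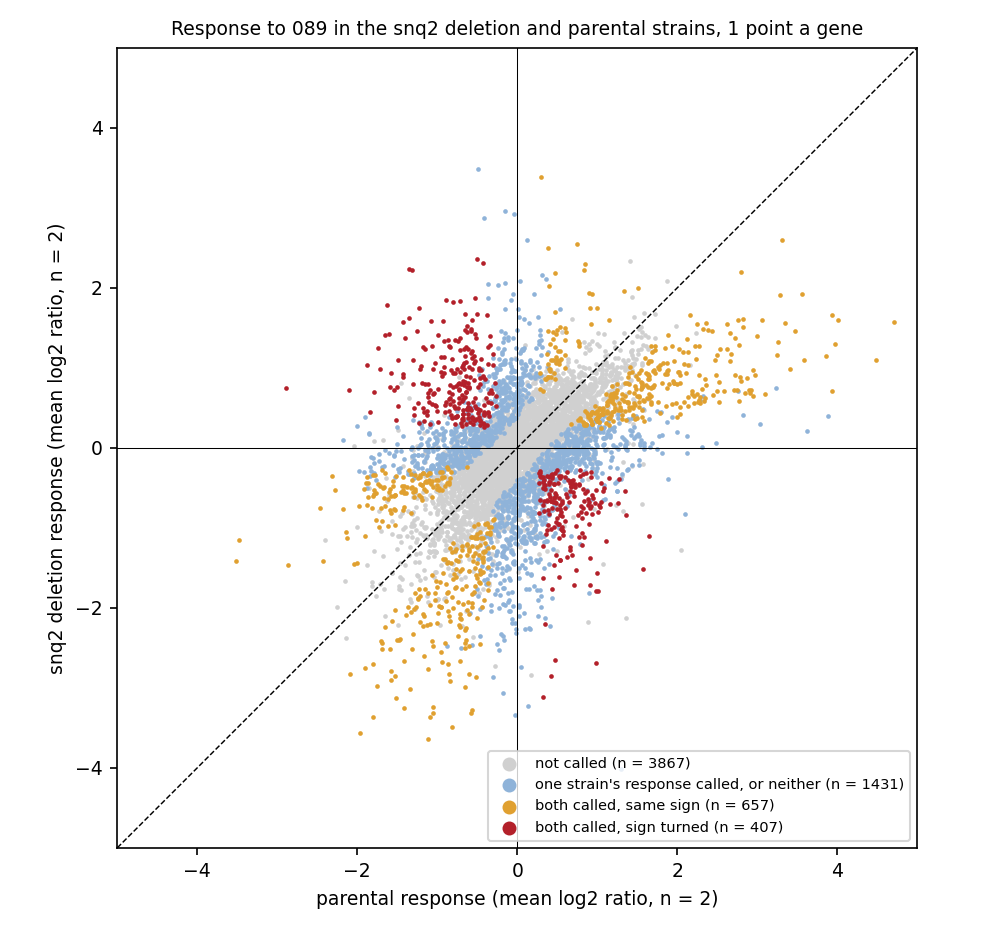
Mean log2 ratio of each of 6362 genes in the snq2 deletion strain (vertical axis, 2 arrays) and in the parental strain (horizontal axis, 2 arrays), coloured by class, with the dashed line where both are equal. The 407 turned genes fill the upper left and lower right, and the 657 genes with 1 sign in both strains flank the dashed line at the lower left and upper right.

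The turned genes with the largest positive differences included an enzyme of sterol synthesis, 3 stress genes, 2 mitochondrial genes, a histone and a sporulation gene. ERG9 encodes squalene synthase, which makes the first molecule committed to sterols. It had log2 ratios of 0.57 and 0.91 on the snq2 deletion arrays, against -2.82 and -2.97 on the parental arrays, a difference of 3.63 ± 0.16 (SE of the fit; adjusted p = 0.000638). HSP12, a small stress protein of the membrane, had 2.05 and 2.42 on the snq2 deletion arrays, against -1.39 and -1.31 on the parental arrays, a difference of 3.58 ± 0.20. CTT1, the cytosolic catalase, had 1.45 and 1.69 in the snq2 deletion strain, against -1.31 and -1.54 in the parental strain. In all of these, both snq2 deletion arrays lay above 0 and both parental arrays below it, as in all 237 genes that turned to higher. DDR2, a stress gene first found through DNA damage, had 1.09 and 1.40 on the snq2 deletion arrays, against -1.76 and -1.73 on the parental arrays. OM14, a protein of the mitochondrial outer membrane, had 1.74 and 1.82 in the snq2 deletion strain, against -1.63 and -1.62 in the parental strain. SDH3, a membrane subunit of succinate dehydrogenase, had 1.37 and 1.45 in the snq2 deletion strain, against -1.66 and -1.63 in the parental strain. These replicates lay close together beside differences of 2.99 for DDR2, 3.41 for OM14 and 3.06 for SDH3. HTB2, which encodes histone H2B, had 1.45 and 1.40 on the snq2 deletion arrays, against -1.70 and -1.51 on the parental arrays. PFS1, a gene of spore formation, had 2.23 and 2.21 in the snq2 deletion strain, against -1.53 and -1.09 in the parental strain. All 8 of these genes passed at an adjusted p of 0.000638 and in each of the 4 fits with 1 array fewer.

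On the other side, the turned genes with the most negative differences were led by translation, ribosome assembly and fermentation. YEF3, the fungal translation elongation factor 3, had log2 ratios of -2.62 and -3.10 on the snq2 deletion arrays, against 0.51 and 0.33 on the parental arrays (difference -3.28 ± 0.19, adjusted p = 0.000663). NOG2, a GTPase that matures the large ribosomal subunit, had -2.46 and -2.84 on the snq2 deletion arrays, against 0.66 and 0.28 on the parental arrays. PDC1, the main pyruvate decarboxylase of alcoholic fermentation, had -1.52 and -1.52 in the snq2 deletion strain, against 1.65 and 1.48 in the parental strain. For YEF3 and NOG2 most of the difference came from the fall in the snq2 deletion strain, whereas PDC1 moved about as far in each strain. The parental rises of YEF3 and NOG2, on which their turned class rests, passed narrowly against 0 in the fit (adjusted p = 0.044 and 0.038). PSA1, which makes GDP-mannose for glycoproteins and the cell wall, had -1.46 and -2.13 in the snq2 deletion strain, against 0.85 and 1.17 in the parental strain. ERG3, the sterol C-5 desaturase, had -1.79 and -1.80 in the snq2 deletion strain, against 0.96 and 1.00 in the parental strain. ERG3 thus turned the other way from ERG9 within one pathway, with a difference of -2.78 ± 0.11 (adjusted p = 0.000638). RSC58, a subunit of the RSC chromatin remodeller, had -1.75 and -1.69 in the snq2 deletion strain, against 0.93 and 0.88 in the parental strain. MRD1, needed for processing of ribosomal RNA, had -1.25 and -1.88 in the snq2 deletion strain, against 1.12 and 0.87 in the parental strain. AAH1, adenine deaminase, had -2.23 and -2.17 on the snq2 deletion arrays, against 0.49 and 0.20 on the parental arrays, a rise with an adjusted p of 0.032 against 0. That the 2 groups of arrays did not overlap in these 5 genes was fixed by how they were chosen. It held for all 2495 called genes and for 4871 of all 6362 genes.

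**Figure D2:**
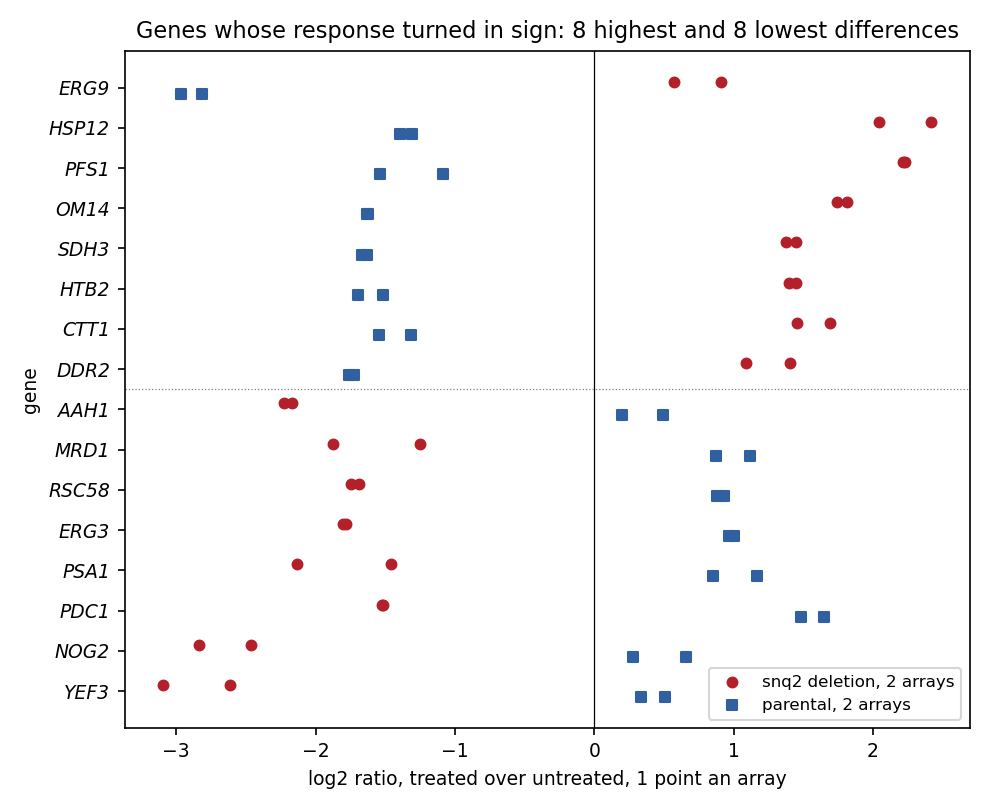
Log2 ratios of the 8 turned genes with the highest and the 8 with the lowest difference, 1 point an array, snq2 deletion arrays as red circles drawn above parental arrays as blue squares. In every gene shown the 2 arrays of a strain lie on the same side of 0 and the strains lie on opposite sides. This held for all 237 and all 170 turned genes, so it does not set the genes shown apart.

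Stress genes of Msn2 and Msn4 formed the list with the highest median difference. Of 40 measured, 28 were higher and 3 lower in the snq2 deletion strain, against 16.4% and 22.8% of all genes, and 23 of these 31 calls were kept without any 1 array. The median log2 ratio of the list was 0.92 in the snq2 deletion strain and -0.60 in the parental strain, and the median difference was 1.39. Turned genes numbered 15 (37.5%, against 6.4% of all genes). XBP1, a stress-induced repressor of transcription, was one of them, with a difference of 2.26 ± 0.12 (adjusted p = 0.000638). SPG4, a gene of survival in stationary phase, had 1.98 and 2.10 in the snq2 deletion strain, against -0.32 and -0.17 in the parental strain, where its own response was not called. Reserve carbohydrates followed the same pattern: 14 of 20 genes of trehalose and glycogen were higher and 1 was lower, 8 turned, 9 of the 15 calls were kept without any 1 array, and the median was 0.53 in the snq2 deletion strain and -0.58 in the parental strain. GLC3, the glycogen branching enzyme, had 0.87 and 1.03 on the snq2 deletion arrays, against -0.85 and -1.06 on the parental arrays. GPH1, which breaks glycogen down, had 0.79 and 0.85 on the snq2 deletion arrays, against -0.61 and -0.70 on the parental arrays. TSL1, a regulatory subunit of the trehalose synthase complex, had 0.44 and 0.62 in the snq2 deletion strain, against -0.82 and -0.99 in the parental strain.

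Respiration differed in a like way on the nuclear side. Of 39 nuclear genes of the respiratory chain and ATP synthase, 27 were higher (69.2%) and 2 lower (5.13%). Over all genes these shares were 16.4% and 22.8%. In this list 13 genes turned (33.3%, against 6.4% of all genes). The median log2 ratio was 0.34 in the snq2 deletion strain and -0.68 in the parental strain. Of these 29 calls 24 were kept without any 1 array. COX12, a subunit of cytochrome c oxidase, had 0.87 and 1.01 on the snq2 deletion arrays, against -0.74 and -0.82 on the parental arrays. COX13, a further subunit of that complex, had 0.51 and 0.63 on the snq2 deletion arrays, against -1.04 and -1.17 on the parental arrays. ATP2, the beta subunit of the ATP synthase, fell in both strains, with -0.41 and -0.31 in the snq2 deletion strain, against -2.31 and -2.32 in the parental strain. ATP2 therefore counts among the genes that differed in size alone (difference 1.96 ± 0.13). Among 19 genes of the tricarboxylic acid cycle, 13 were higher (68.4%) and 0 lower, and 11 of these calls were kept without any 1 array. The median was 0.45 in the snq2 deletion strain and -0.57 in the parental strain. CIT3, a mitochondrial citrate synthase, had 1.48 and 1.45 on the snq2 deletion arrays, against -0.69 and -0.46 on the parental arrays. LPD1, the lipoamide dehydrogenase shared by pyruvate and 2-oxoglutarate dehydrogenases, had 0.66 and 0.71 on the snq2 deletion arrays, against -1.10 and -1.14 on the parental arrays. SDH2, the iron-sulfur subunit of succinate dehydrogenase, had -0.11 and -0.04 in the snq2 deletion strain, against -1.72 and -1.73 in the parental strain, and so was called in the parental strain alone (difference 1.65, and 2.55 with quantile normalised arrays).

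Carbon use beyond glucose showed the same tilt. In the list of the glyoxylate cycle, gluconeogenesis and other carbon sources, 23 of 38 genes were higher (60.5%) and 4 lower (10.5%). Over all genes these shares were 16.4% and 22.8%. In this list 13 genes turned (34.2%, against 6.4% of all genes), and the median difference was 1.05. The median was 0.96 in the snq2 deletion strain and -0.18 in the parental strain, and 19 of the 27 calls were kept without any 1 array. MLS1, malate synthase of the glyoxylate cycle, had log2 ratios of 1.78 and 1.70 on the snq2 deletion arrays, against -1.41 and -1.06 on the parental arrays. ALD4, the mitochondrial aldehyde dehydrogenase, had 1.47 and 1.77 on the snq2 deletion arrays, against -1.24 and -1.47 on the parental arrays. ADY2, an acetate transporter, had 2.31 and 2.30 in the snq2 deletion strain, against -0.34 and -0.53 in the parental strain. GAL2, the galactose permease, went against the list: it had 0.25 and 0.34 in the snq2 deletion strain, against 2.93 and 3.15 in the parental strain (difference -2.75 ± 0.14). Glycolysis and fermentation ran the opposite way, with 3 of 27 genes higher (11.1%) and 17 lower (63%). Of these 20 calls 13 were kept without any 1 array. The median was -0.23 in the snq2 deletion strain and 0.23 in the parental strain. ENO2, an enolase, had 0.00 and 0.02 on the snq2 deletion arrays, against 1.73 and 1.60 on the parental arrays. GPP1, which makes glycerol, had -2.17 and -2.04 in the snq2 deletion strain, against 0.13 and -0.08 in the parental strain. The 3 higher members included kinases that feed glucose into the pathway. HXK1, hexokinase 1, had 0.64 and 0.81 on the snq2 deletion arrays, against -1.54 and -1.54 on the parental arrays. GLK1, glucokinase, had 0.35 and 0.54 on the snq2 deletion arrays, against -1.76 and -1.91 on the parental arrays. Of the 20 hexose transporters and sensors, 2 were higher (10%) and 3 lower (15%), against 16.4% and 22.8% of all genes. HXT1, the low-affinity carrier used at high glucose, had -1.20 and -1.61 in the snq2 deletion strain, against 0.52 and 0.54 in the parental strain. HXT5, a carrier made in slowly growing cells, turned the other way, with 0.69 and 0.86 in the snq2 deletion strain, against -0.85 and -0.69 in the parental strain.

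**Figure D3:**
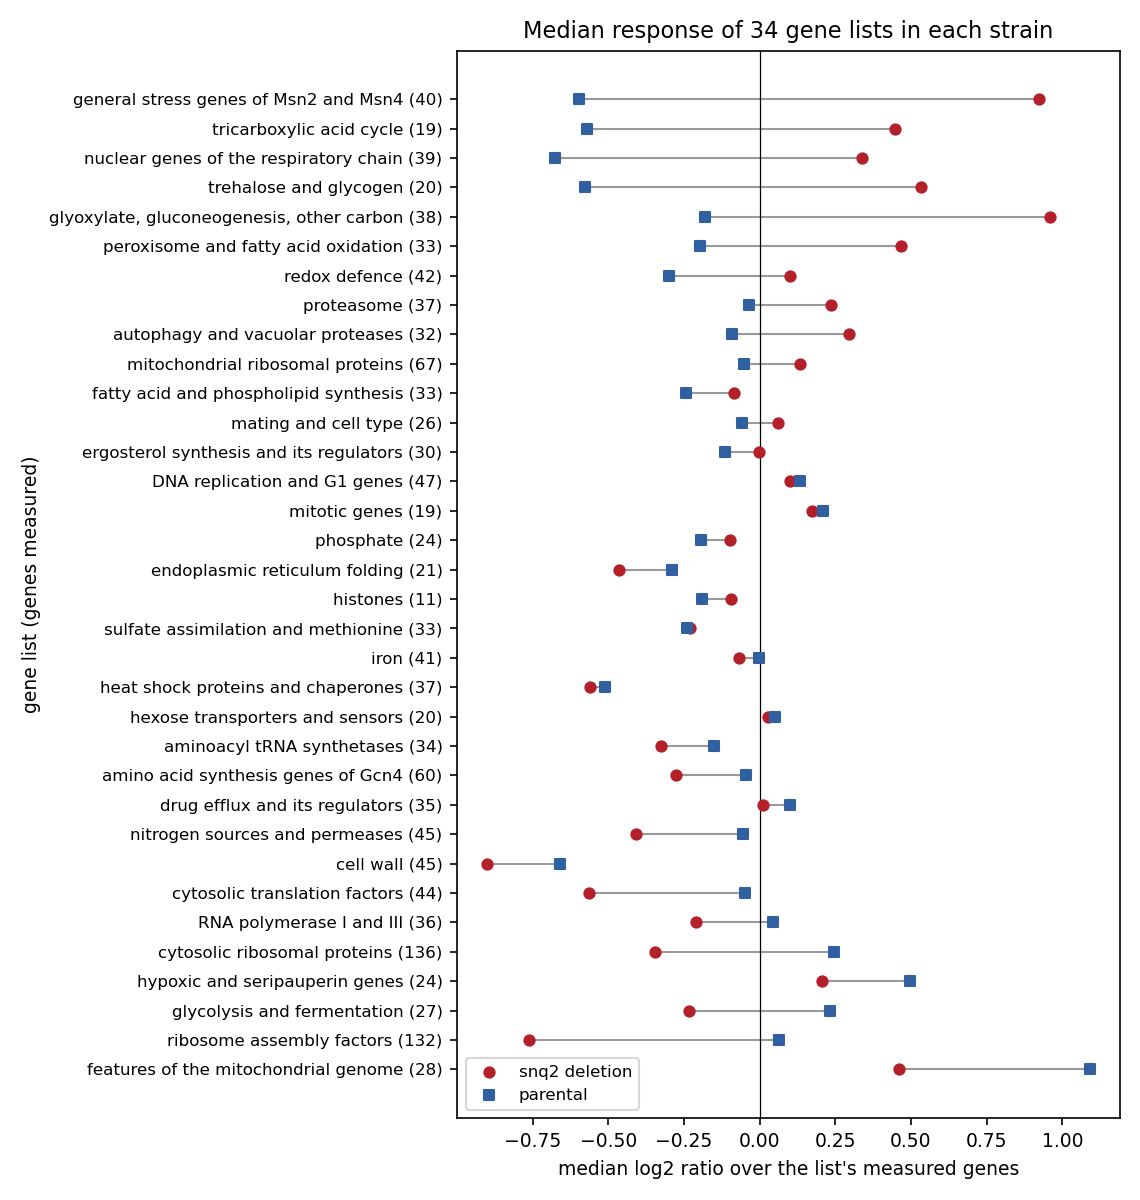
Median log2 ratio of 34 gene lists in the snq2 deletion strain (red circles) and the parental strain (blue squares), ordered by the median difference, with the number of genes measured in brackets. Stress, tricarboxylic acid cycle, respiratory and reserve carbohydrate lists lie right of 0 in the snq2 deletion strain and left of it in the parental strain, and ribosome assembly factors lie at -0.76 in the snq2 deletion strain and 0.06 in the parental strain.

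Protein breakdown, peroxisomes and defence against oxidants had more higher than lower members. In the redox list 18 of 42 genes were higher and 2 lower, in the proteasome list 17 of 37 and 2, in the peroxisome list 15 of 33 and 4, and in the list of autophagy and vacuolar proteases 13 of 32 and 1. The shares of higher genes were 42.9%, 45.9%, 45.5% and 40.6% in that order, against 16.4% of all genes. Calls kept without any 1 array were 12 of 20 in the redox list, 7 of 19 in the proteasome list, 9 of 19 in the peroxisome list and 9 of 14 in the autophagy list. Over all genes 995 of 2495 calls were kept. TSA1, the major peroxiredoxin, had 0.95 and 1.25 on the snq2 deletion arrays, against -1.25 and -1.37 on the parental arrays. SOD2, the mitochondrial superoxide dismutase, had 1.00 and 1.02 on the snq2 deletion arrays, against -0.96 and -0.87 on the parental arrays. Both turned, as did 2 vacuolar proteases and an inhibitor of one of them. PRB1, vacuolar proteinase B, had a difference of 1.73 ± 0.12. PEP4, vacuolar proteinase A, had 0.53 and 0.52 in the snq2 deletion strain, against -1.11 and -0.92 in the parental strain. PBI2, the inhibitor of proteinase B, had 1.71 and 1.97 in the snq2 deletion strain, against -0.91 and -0.87 in the parental strain. Enzyme and inhibitor thus differed in the same direction. RPN4, the transcription factor of proteasome genes, had 0.61 and 0.99 on the snq2 deletion arrays, against -0.41 and -0.51 on the parental arrays. CTA1, the peroxisomal catalase, had 2.05 and 2.05 in the snq2 deletion strain, against -0.53 and -0.21 in the parental strain, where the response was not called.

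Genes of ribosome production responded lower in the snq2 deletion strain. Among 132 ribosome assembly factors, 3 were higher and 83 lower, against 16.4% and 22.8% of all genes, and the median log2 ratio was -0.76 in the snq2 deletion strain and 0.06 in the parental strain. Of these genes 6 turned (4.55%, against 6.4% of all genes), 46 had a called response in the snq2 deletion strain alone, and 13 had the same sign in both strains with a larger change in the snq2 deletion strain. The call was kept without any 1 array for 37 of the 86 genes, against 995 of all 2495 called genes. NOP58, a core protein of box C/D small nucleolar particles, had -2.99 and -3.47 on the snq2 deletion arrays, against 0.12 and 0.15 on the parental arrays (difference -3.36 ± 0.19, adjusted p = 0.000638). SNU13, which binds the RNA of the same particles, had -2.94 and -2.79 on the snq2 deletion arrays, against -0.52 and -0.52 on the parental arrays. UTP6, of the small subunit processome, had -0.10 and -0.02 in the snq2 deletion strain, against 1.91 and 1.71 in the parental strain, so its difference came from the parental rise. In the list of RNA polymerases I and III, 14 of 36 genes were lower (38.9%) and 3 higher (8.33%), and 6 of these 17 calls were kept without any 1 array. RPA135 and RPA190, the large subunits of RNA polymerase I, had -2.70 and -2.78, and -1.77 and -2.21, on the snq2 deletion arrays. Their parental values were -0.05 and 0.14 for RPA135, and -0.44 and -0.44 for RPA190.

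Cytosolic ribosomal protein genes differed by less per gene, and more often by turning. Of 136 measured, 4 were higher (2.94%) and 73 lower (53.7%), against 16.4% and 22.8% of all genes. Of these 77 calls 37 were kept without any 1 array. The median difference was -0.60. The median log2 ratio was -0.34 in the snq2 deletion strain and 0.25 in the parental strain. Genes that turned to lower numbered 21, and 1 turned to higher. Turned genes were 16.2% of the list, against 6.4% of all genes. A further 29 had a called response in the parental strain alone. RPL20A had -0.79 and -0.61 on the snq2 deletion arrays, against 1.26 and 1.05 on the parental arrays. RPS7A had -0.42 and -0.34 on the snq2 deletion arrays, against 1.13 and 1.15 on the parental arrays. RPL25, a single-copy gene of the large subunit, had -0.24 and -0.17 in the snq2 deletion strain, against 1.61 and 1.44 in the parental strain. Many of these genes have a near-identical paralog, and signal shared between the copies of a pair cannot be told apart with the values used here. Among 44 translation factors 16 were lower (36.4%) and 4 higher (9.09%), against 22.8% and 16.4% of all genes. DED1, an RNA helicase of initiation, fell in both strains, with -3.03 and -3.23 in the snq2 deletion strain, against -1.57 and -1.46 in the parental strain. CDC33, the cap-binding initiation factor, turned, with -0.55 and -0.48 in the snq2 deletion strain, against 0.89 and 0.75 in the parental strain. Of 34 aminoacyl tRNA synthetases 8 were lower (23.5%, close to the share over all genes) and 2 higher.

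**Figure D4:**
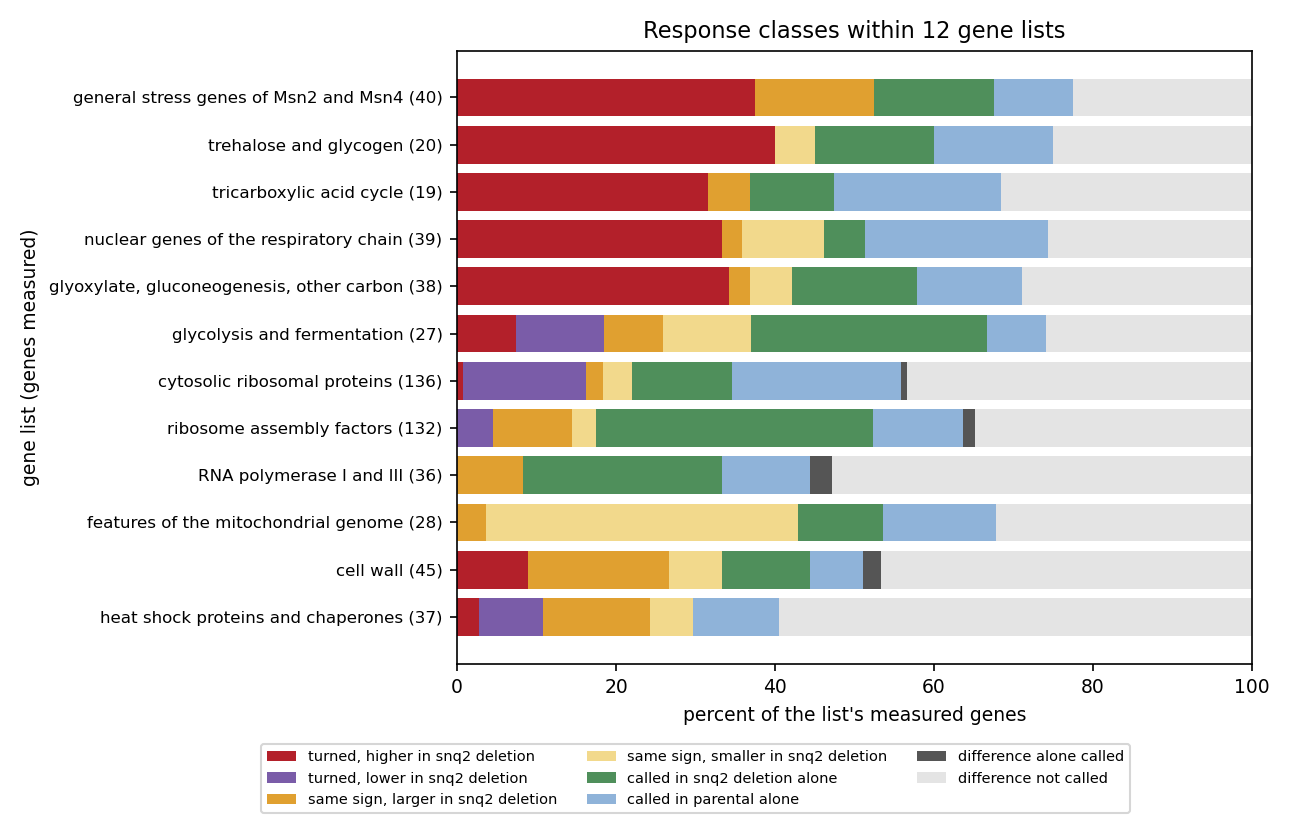
Make-up of 12 gene lists by response class, as percent of the genes measured (number in brackets), stacked from turned at the left to difference not called at the right. Turned genes make up 37.5% of the stress list and 16.2% of the ribosomal protein list, and 4.55% of the ribosome assembly list, against 6.4% of all genes, and responses called in the snq2 deletion strain alone are the largest called class of the last.

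Genes that changed with the same sign in both strains differed in size alone. Where both strains rose and the snq2 deletion strain rose further, RGI2 led, a gene of energy metabolism under respiration. It had 3.35 and 3.43 on the snq2 deletion arrays, against 0.32 and 0.27 on the parental arrays (difference 3.10 ± 0.11). Its relative RGI1 had 2.46 and 2.63 in the snq2 deletion strain, against 0.79 and 0.71 in the parental strain. CLN3, the G1 cyclin that starts the cell cycle, had 2.43 and 2.55 in the snq2 deletion strain, against 0.27 and 0.49 in the parental strain. The larger part of this class fell in both strains, with 195 of 252 genes lower in the snq2 deletion strain. NOG1, a GTPase of large subunit assembly, had -3.07 and -3.56 on the snq2 deletion arrays, against -0.64 and -0.50 on the parental arrays. DBP2, an RNA helicase, had -3.72 and -3.25 on the snq2 deletion arrays, against -0.91 and -0.71 on the parental arrays. FKS1, the catalytic subunit of glucan synthase, had -3.54 and -3.74 in the snq2 deletion strain, against -1.02 and -1.21 in the parental strain. In the cell wall list as a whole 10 of 45 genes were higher (22.2%) and 14 lower (31.1%), against 16.4% and 22.8% of all genes. In each strain 27 of the 45 fell, with a median of -0.90 in the snq2 deletion strain and -0.66 in the parental strain. GAS1, a glucan-remodelling enzyme, had -2.07 and -2.64 in the snq2 deletion strain, against -0.18 and -0.19 in the parental strain. TIP1, a mannoprotein of the wall, turned to higher, with 0.45 and 0.60 in the snq2 deletion strain, against -0.83 and -0.76 in the parental strain.

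Smaller changes in the snq2 deletion strain were led by the mitochondrial genome. Of its 28 features, 18 were lower (64.3%) and 1 higher (3.57%), against 22.8% and 16.4% of all genes. Turned features numbered 0, against 6.4% of all genes, and 14 of the 19 calls were kept without any 1 array. The median log2 ratio was 0.46 in the snq2 deletion strain and 1.09 in the parental strain, and the median difference was -1.38. That median, like the median difference of every other list, lay within the central 95% of the control spots' differences (-1.94 to 1.43). A list median and the spread of single spots are unlike measures. The last 15 features named empty ran alike, with strain means of 1.23 to 4.82 (parental) and -0.38 to 1.54 (snq2 deletion). Whether the mitochondrial features share a signal with those spots was not tested. ATP8, a subunit of the ATP synthase, had 1.39 and 1.75 on the snq2 deletion arrays, against 4.83 and 4.58 on the parental arrays. ATP6 had 1.04 and 1.54 on the snq2 deletion arrays, against 3.63 and 4.30 on the parental arrays. COX1, of cytochrome c oxidase, had 1.37 and 1.82 on the snq2 deletion arrays, against 4.18 and 3.85 on the parental arrays. These 3 genes are transcribed together in yeast, so they are not independent features. With quantile normalised arrays the difference of ATP6 was -1.74, that of AI5_ALPHA -1.26 and that of AI3 -1.10, against -2.68, -2.28 and -1.79 with the values as deposited. AI5_ALPHA, AI4 and AI3 are reading frames within introns of COX1, and share its transcript. AI4 had 0.04 and 0.08 in the snq2 deletion strain, against 2.52 and 2.45 in the parental strain. The median differences of the mitochondrial genome list (-1.38) and of the nuclear respiratory chain list (1.13) had opposite signs. The 2 lists are not alike, since the mitochondrial one also holds such intron reading frames and features that share a transcript. Mitochondrial ribosomal proteins, which are nuclear genes, had 16 of 67 higher (23.9%) and 4 lower (5.97%), against 16.4% and 22.8% of all genes. Their median difference was 0.26.

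Among nuclear genes of this class, TUS1, an activator of Rho1, had 0.86 and 0.95 in the snq2 deletion strain, against 2.97 and 2.96 in the parental strain. VPS30, a subunit of the autophagy lipid kinase complexes, fell in both strains, with -1.17 and -1.12 in the snq2 deletion strain, against -3.42 and -3.53 in the parental strain (difference 2.33 ± 0.16). FAS1, a subunit of fatty acid synthase, had -0.35 and -0.34 in the snq2 deletion strain, against -1.85 and -1.75 in the parental strain. ISU1, the scaffold for iron-sulfur clusters, and NCE102, a protein of membrane compartments, behaved likewise, with differences of 1.75 and 1.72. With quantile normalised arrays the differences were -1.26 for TUS1, 2.39 for FAS1, 2.67 for ISU1 and 2.66 for NCE102, so the direction held while the size moved. The hypoxic and seripauperin list had 11 of 24 lower (45.8%) and 3 higher (12.5%), against 22.8% and 16.4% of all genes. Of its members 6 were of the same sign and smaller. PAU3 had 0.76 and 0.83 in the snq2 deletion strain, against 1.94 and 2.06 in the parental strain (difference -1.20, and -0.73 with quantile normalised arrays). Seripauperin genes are highly similar copies, so the signals of PAU3, PAU4 and PAU6 cannot be told apart.

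Some of the largest differences lay in genes that responded in 1 strain alone. TMA10, a small protein found with ribosomes, had the largest positive difference of the named genes, with 3.34 and 3.62 on the snq2 deletion arrays, against -0.52 and -0.46 on the parental arrays (difference 3.97 ± 0.24, adjusted p = 0.000695). NCE103, carbonic anhydrase, had 2.92 and 3.00 on the snq2 deletion arrays, against -0.13 and -0.18 on the parental arrays. REC102, a gene of meiotic recombination, had 2.50 and 3.25 on the snq2 deletion arrays, against -0.28 and -0.55 on the parental arrays. In these 3 genes the parental response was not called. MAE1, the mitochondrial malic enzyme, had -3.01 and -3.68 in the snq2 deletion strain, against -0.18 and 0.12 in the parental strain. SVL3 had -2.28 and -3.85 in the snq2 deletion strain, against -0.05 and -0.31 in the parental strain. Its replicates lay far apart, and its call was lost without parental replicate 1 and without parental replicate 2. SKI3, of the complex that feeds the cytoplasmic exosome, had the most negative difference of the named genes and a called response in the parental strain alone, with 0.36 and 0.06 in the snq2 deletion strain, against 3.97 and 3.26 in the parental strain (difference -3.40 ± 0.26, adjusted p = 0.000941).

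Drug efflux genes were followed as a list of pumps of several families and their regulators. Of 35 genes, 6 were higher and 14 lower, the median difference was -0.29, and 11 of the 20 calls were kept without any 1 array. The shares were 17.1% higher, close to the 16.4% of all genes, and 40% lower, against 22.8% of all genes. PDR5, a major drug pump of the same family as Snq2, had -2.39 and -2.42 on the snq2 deletion arrays, against -0.09 and -0.24 on the parental arrays (difference -2.24 ± 0.13, adjusted p = 0.000679). YRR1, a regulator of SNQ2 and YOR1, turned, with -0.97 and -0.79 on the snq2 deletion arrays, against 0.98 and 0.64 on the parental arrays. PDR1, the main activator of pump genes, fell in both strains, with -1.68 and -1.94 in the snq2 deletion strain, against -1.26 and -1.31 in the parental strain. Its difference of -0.53 ± 0.14 passed (adjusted p = 0.031), but not without snq2 deletion replicate 2, parental replicate 1 or parental replicate 2, nor with quantile normalised arrays (-0.29). No difference was called for PDR3 (-0.15 ± 0.12, adjusted p = 0.379) or for the pump gene YOR1 (-0.24 ± 0.11, adjusted p = 0.157). AZR1, a transporter of the major facilitator family, was the most positive member, with 2.63 and 2.57 in the snq2 deletion strain, against 0.05 and 0.20 in the parental strain. AQR1, of the same family, had -1.50 and -1.51 in the snq2 deletion strain, against 0.15 and 0.05 in the parental strain. QDR2, a multidrug transporter, rose in both strains, with 1.48 and 1.47 in the snq2 deletion strain, against 2.39 and 2.37 in the parental strain. That call was lost with quantile normalised arrays, where its difference was -0.14 instead of -0.91.

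Ergosterol synthesis held large differences in both directions. Of 30 genes 8 were higher and 12 lower, the median difference was 0.01, and 10 of the 20 calls were kept without any 1 array. The shares were 26.7% higher and 40% lower, against 16.4% and 22.8% of all genes. Beside ERG9 and ERG3, ARE2, which esterifies sterols, turned to lower, with -0.76 and -0.69 in the snq2 deletion strain, against 0.77 and 0.83 in the parental strain. ERG28, a scaffold of the demethylating enzymes, had 0.15 and 0.42 in the snq2 deletion strain, against -1.33 and -1.07 in the parental strain. ERG25, the C-4 methyl oxidase held by that scaffold, had 0.16 and 0.16 in the snq2 deletion strain, against -0.67 and -0.67 in the parental strain. ERG6 had 0.17 and 0.38 in the snq2 deletion strain, against -0.66 and -0.43 in the parental strain, and its call did not hold without snq2 deletion replicate 2 or without parental replicate 1.

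In the Gcn4 list of amino acid synthesis 23 of 60 genes were lower (38.3%) and 6 higher (10%), and in the nitrogen list 19 of 45 (42.2%) and 4 (8.89%), against 22.8% lower and 16.4% higher over all genes. Without any 1 array 14 of the 29 and 12 of the 23 calls were kept. BAT1, a branched-chain aminotransferase, had -2.14 and -2.40 in the snq2 deletion strain, against -0.02 and -0.01 in the parental strain. ILV5, of the same pathway, had -2.52 and -2.54 in the snq2 deletion strain, against -0.22 and -0.23 in the parental strain. MEP2, an ammonium permease, had -2.27 and -2.37 in the snq2 deletion strain, against -0.03 and -0.01 in the parental strain. These 3 genes fell in the snq2 deletion strain alone. GDH2, which releases ammonium from glutamate, turned to higher, with 1.38 and 1.55 in the snq2 deletion strain, against -0.64 and -0.67 in the parental strain. GCN4 itself had 0.06 and 0.19 in the snq2 deletion strain, against -1.13 and -1.28 in the parental strain. Iron genes had 15 of 41 lower (36.6%) and 5 higher (12.2%), and 6 of these 20 calls were kept without any 1 array. Over all genes 995 of 2495 calls were kept. Sulfate and methionine genes had 8 of 33 lower and 5 higher, shares of 24.2% and 15.2% that lie close to those over all genes, and phosphate genes had 7 of 24 (29.2%) and 4 (16.7%). SAM1, which makes S-adenosylmethionine, fell in both strains, with -3.09 and -2.92 in the snq2 deletion strain, against -1.38 and -1.30 in the parental strain. The list of fatty acid and phospholipid synthesis had 9 of 33 higher (27.3%) and 5 lower (15.2%). PAH1, the phosphatidate phosphatase, had 1.88 and 1.96 in the snq2 deletion strain, against 0.24 and 0.18 in the parental strain.

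Several lists differed little as a whole, and their shares are set beside 16.4% higher and 22.8% lower over all genes. Of 37 heat shock proteins and chaperones, 23 fell in the snq2 deletion strain and 24 in the parental strain, with medians of -0.56 and -0.51. The difference was higher for 6 (16.2%) and lower for 9 (24.3%). Within them the ribosome-bound chaperones turned to lower. SSB2 had -1.41 and -1.64 in the snq2 deletion strain, against 0.78 and 0.69 in the parental strain, and its near-identical copy SSB1 had -0.96 and -1.47, against 0.84 and 0.78 in the parental strain. ZUO1, their partner on the ribosome, had -0.73 and -0.88 in the snq2 deletion strain, against 1.15 and 0.86 in the parental strain. HSP26, a small heat shock protein, rose in both strains, with 2.03 and 2.01 in the snq2 deletion strain, against 0.47 and 0.34 in the parental strain. In the endoplasmic reticulum 3 of 21 folding genes were higher (14.3%) and 5 lower (23.8%). KAR2, its Hsp70, had -1.99 and -2.26 in the snq2 deletion strain, against -0.70 and -0.72 in the parental strain. Histones had 3 of 11 higher (27.3%) and 1 lower (9.09%). The linker histone gene HHO1 turned as HTB2 did, with 0.76 and 0.97 in the snq2 deletion strain, against -0.40 and -0.54 in the parental strain. DNA replication and G1 genes had 7 of 47 higher (14.9%) and 4 lower (8.51%). RNR4 and RNR2, which encode the small subunits of ribonucleotide reductase, turned to higher, with differences of 2.39 and 1.62. Mitotic genes had 2 of 19 higher (10.5%) and 3 lower (15.8%), and mating genes 3 of 26 (11.5%) and 5 (19.2%).

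**Figure D5:**
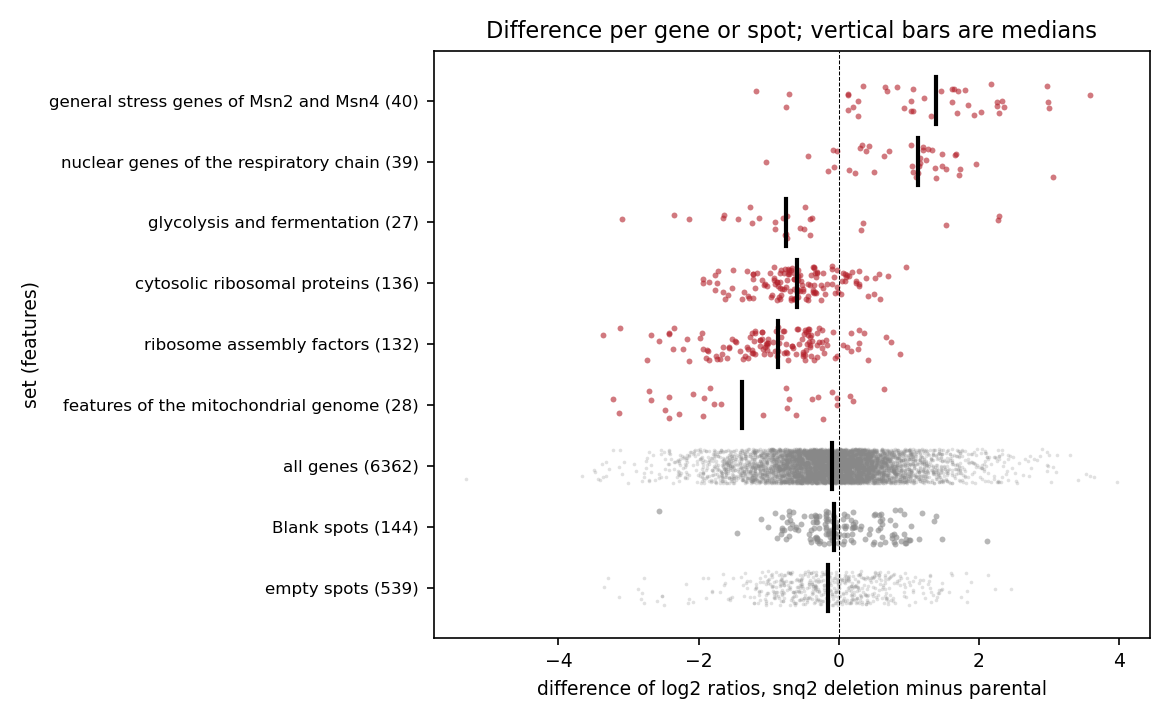
Difference of log2 ratios, snq2 deletion minus parental, for each gene of 6 lists (red), for all genes and for the Blank and empty control spots (grey), with a vertical bar at each median. Stress and respiratory chain genes centre at 1.39 and 1.13, ribosome assembly factors and mitochondrial features at -0.86 and -1.38, while all genes and control spots centre near 0 with wide tails.

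The erg6 deletion arrays entered the calls through the spread of each gene, but their level did not. Of the 237 genes that rose in the snq2 deletion strain and fell in the parental strain, 214 (90.3%) were above 0 on both erg6 deletion arrays, against 34.7% of all genes. With the classes taken from the 4 compared arrays alone, the count was 236 of 265 (89.1%). The share was not particular to turned genes: it was 91.2% of the 57 genes that rose in both strains and further in the snq2 deletion strain, and 80.4% of the 255 that were higher with a response in the snq2 deletion strain alone. The median log2 ratio of the 237 genes in the erg6 deletion strain was 0.78. Of the 170 genes that turned the other way, 42.4% were below 0 on both erg6 deletion arrays, against 47.4% of all genes, and the median was 0.09. From the 4 compared arrays alone it was 86 of 215 (40%). OM14 had 1.59 and 1.42 on the erg6 deletion arrays and SDH3 had 1.80 and 1.59, close to their values in the snq2 deletion strain. Other turned genes were not: HSP12 had 0.66 and 0.27 there, against 2.05 and 2.42 in the snq2 deletion strain. PFS1 lay below 0 on both erg6 deletion arrays, with -0.30 and -0.04. PDC1, with 0.83 and 0.80, and ERG3, with 0.80 and 0.81, lay above 0 on the erg6 deletion arrays, the side of the parental strain. YEF3, with -0.82 and -0.71, and MRD1, with -0.45 and -0.22, lay below 0 there, the side of the snq2 deletion strain. Ribosomal proteins had a median of 1.03 in the erg6 deletion strain, above that of both other strains. The part of a dye effect common to all 3 strains in these shares was not tested.

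Annotation also differed between classes. A locus tag of the reference gene table was matched for 98.7% of the genes that turned to higher and for 91.6% of all genes. The share was 76% among the 283 genes that rose in both strains but less in the snq2 deletion strain, the lowest of the classes in either direction. At the threshold, ALB1, a shuttling factor of ribosome assembly, was just called (difference -0.51 ± 0.16, adjusted p = 0.0499). SUI1, a translation initiation factor, was just not called with a larger difference of -0.90 ± 0.28 (adjusted p = 0.0505). DER1 (-0.79 ± 0.24) and SLM5 (-0.80 ± 0.24) lay on the called and the not called side with nearly equal differences.

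Of the loci mutated in all strains, HIS3, LEU2, LYS2 and URA3, 2 had called differences. HIS3 had -0.81 and -1.57 in the snq2 deletion strain, against 0.26 and 0.15 in the parental strain, and its call did not hold without either parental array. LEU2 had -1.22 and -3.51 in the snq2 deletion strain, against -1.53 and 0.42 in the parental strain, with replicates farther apart than the strains and no call (adjusted p = 0.173). URA3 was called (-0.46 ± 0.13), and its call was lost in each of the 4 fits that leave out 1 array. LYS2 did not pass (0.09 ± 0.15, adjusted p = 0.649). How much of these 4 loci each strain still carries is not given in the labels. The difference of SNQ2 (0.47 ± 0.13), which the parental strain carries intact, was called too and was also lost in each of those 4 fits.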

How the data were processed

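Total RNA of 3 yeast strains was measured on 6 two-colour arrays, 2 per strain. The authors deposited 1 log value per feature and array, taken here as log2 of treated over untreated per the labels' titles and dyes. Fluorescence was scanned on a GenePix 4000B, as the labels' protocols say. Background correction, normalization and spot filters were not stated in any source used, and signal over background was not analysed here, so the number of arrays limits the precision. Values held 0 gaps. RefSeq's R64 table, used for names alone, held the locus tags of 5826 of the 6362 genes.

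A linear model with a mean for each strain was fitted over the 6 arrays in limma 3.58.1 under R 4.3.3. The spread was moderated by eBayes, with 2.45 prior degrees of freedom beside 3 residual ones. P-values of the difference and of each strain's own response against 0 were adjusted by Benjamini-Hochberg over 6362 genes and called at 0.05. Among called differences, genes were classed by the calls and signs of the own responses. The same contrast was taken for control spots, using the genes' variance prior. As a check of the code, the fit and the classes were run on simulated arrays with independent noise and few changed genes. Those arrays differ from the data here, so that run does not bear on the calls.

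The members and the 35 gene lists were chosen with earlier results of these data known, and list counts carry no test. A few list entries were corrected after matching. Named genes, all with a symbol, were the 10 highest and 10 lowest called differences, the 8 highest and 8 lowest turned genes, the 5 largest of each same-sign class by direction, up to 5 members of each list with the smallest p, drug efflux and marker loci named in advance, and those next to the threshold. Replicate numbers were not used to pair the samples in the main fit. Deviations of same-numbered snq2 deletion and parental arrays correlated at r = -0.04 across genes, and those of parental and erg6 deletion arrays at 0.09. With 2 arrays per strain, these values cannot show how the samples were paired. Alternatives varied the normalization, the arrays used, the fit, the minimum size, the genes and the class rule.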

Additional observations from a re-analysis of the deposited data

Results flagged for a closer look

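The difference between the strains was itself tested, and 2495 genes passed, of which 237 turned with a rise in the snq2 deletion strain and 170 with a fall in it. These are the genes described above.

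Control spots gave signal outside the gene comparison: 25.7% of Blank spots and 8.53% of empty spots passed the threshold used for genes. Their differences were centred near 0, with medians of -0.06 for Blank and -0.15 for empty spots. What these spots carry is not given in the labels. Of the turned genes, 143 that were higher and 26 that were lower lay outside the central 95% of the control spots' differences. Without the last 15 features named empty, which set the lower limit, these were 143 and 72.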

How the results depend on the processing

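Leaving out 1 of the 4 compared arrays gave 1202 to 1693 called differences (512 to 693 higher, 675 to 1000 lower). Turned genes then numbered 124 to 167 higher and 56 to 141 lower, same sign and larger 58 to 184, same sign and smaller 137 to 214, snq2 deletion alone 279 to 486 and parental alone 279 to 602. Of the control spots 11.1% to 17.4% of Blank and 7.42% to 9.28% of empty spots passed. The fit of the 4 compared arrays, which leaving out either erg6 deletion array equals, called 2889 (1212 higher, 1677 lower). It gave 265 and 215 turned, 311 larger, 460 smaller, 748 in the snq2 deletion strain alone and 831 in the parental strain alone, with 31.9% of Blank and 14.3% of empty spots past. A minimum of 1.5-fold left 702 called (306 higher, 396 lower), with 25 and 5 turned, 16 larger, 29 smaller, 274 in the snq2 deletion strain alone and 231 in the parental strain alone. Classing by the signs of both replicates alone gave 532 and 505 turned, 453 larger and 663 smaller. With a replicate block 2187 genes were called (909 higher, 1278 lower), 207 and 142 of them turned. Whether the replicate numbers pair the samples was not settled. Without genes at or below -3 on any array, an alternative chosen after seeing the data, 2568 were called, 246 and 173 of them turned. Without the last 15 empty features, chosen likewise, 518 called genes lay outside the control range in place of 330, 301 of them below it in place of 113, and 72 turned lower genes in place of 26.

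For the 118 genes named in the text, 1877 values under the alternatives held 1816 on the same side of the threshold, 44 that lost it in 10 genes, 17 that gained it and 0 of the other sign. Most of these genes were chosen for a large difference or a small p in the same data, so their stability partly follows from that choice. Leaving out either erg6 deletion array equals the fit of the 4 compared arrays, so that fit enters these tallies more than once. Of 560 list medians, 12 had the other sign, in 6 lists, and 0 of those in lists with a median difference of at least 0.5. The planned comparison of promoter motifs was not run, since promoter sequences were not used here.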
